A study of Mus musculus with 6 samples.

Results

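The control libraries of the series recorded the baseline transcriptome of GFP-sorted cortical cells from mouse embryos at E15.5, counted in days of gestation. They were chosen by their label alone, Scr, and made up 3 of the 6 samples. All 3 libraries came from wild-type embryos without a transgene, and a plasmid pair was introduced into the cortex at E14.5 by in utero electroporation, 5 pulses of 45 V lasting 50 ms each. One plasmid, at 0.7 µg/µl, expressed the green fluorescent protein GFP from the CAG promoter, which is active in most cell types. The other, the pSilencer negative control at 1 µg/µl, transcribed a scrambled hairpin from the U6 promoter. Neither promoter is restricted to a cell type, so GFP marked cells that had taken up DNA, together with their progeny. GFP-positive cells were sorted 24 hours later, and the cells of 2 embryos were pooled for each library, giving 3 independent pools. The labels conflict on the strain, which is ICR in the protocol and C57BL/6 in the sample characteristics, and they name the source as cortical progenitors. RNA with an integrity number above 9.5 went into SMART-seq v4 libraries, a kit that copies full-length cDNA without marking its strand, read as single 50-base reads.

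The embryonic cortex is built by radial glia, stem cells whose bodies line the ventricle and which express Sox2, Pax6 and the Notch target Hes5. Radial glia divide to renew themselves and to produce intermediate progenitors, which express Eomes and the proneural factor Neurog2. Their daughters leave the cell cycle, migrate outwards and switch on neuronal genes such as Neurod2, Tbr1 and Dcx. Electroporation from the ventricle reaches mainly cells at its surface, and a day later some of their progeny have become young neurons. In libraries made from pooled cells, fewer cells of a type and less RNA per cell cannot be told apart.

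Counts in genes were 12724511, 13960806 and 16684038 in libraries 1, 2 and 3 (the 3 Scr replicates). Levels of a gene between libraries are given as CPM, counts scaled to a total of 1000000 in genes. Levels of different genes are compared as TPM, counts divided by exon length and scaled to the same total in each library. Library 2 stood apart: its log2 CPM correlated with the others across 15992 genes at Pearson's r = 0.964 and 0.969, against 0.979 for libraries 1 and 3. The biological coefficient of variation, the spread beyond counting error estimated by edgeR, was 21.8% over the 3 libraries and 16.9% without library 2. Some results that rest on library 2 are therefore also given without it. Where no such value is given, the result depends on library 2 to an extent not shown.

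A total of 15992 genes reached a mean of 1 CPM, the level called detected here. Of these, 12669 were protein-coding, and 12003 of those reached 1 CPM in every library. Far fewer genes were abundant: 2581 protein-coding genes had a mean of at least 100 CPM and 46 had at least 1000 CPM. Among detected protein-coding genes the median level was 20.98 TPM and the 99th percentile 659 TPM. The 100 protein-coding genes with the highest TPM held 15.3% ± 0.423 of all TPM (SD, n = 3), and the top 1000 held 42.8%.

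All 8 marker genes of the lineage were detected in every library. Of the radial glia genes, Sox2, a stem cell factor, had 65.8, 66.7 and 55.7 CPM in libraries 1, 2 and 3. Pax6, a homeodomain factor of cortical radial glia, had 122, 64.7 and 104 CPM. Hes5, a repressor induced by Notch, had 39.5, 40.8 and 51.7 CPM. Library 2 was the lowest for Pax6 alone among these genes. The intermediate progenitor genes were higher per length. Eomes had 366, 172 and 273 CPM, a 2.13-fold range with library 2 lowest. Neurog2 had 560, 329 and 393 CPM in the same order. Of the neuronal genes, Neurod2 had 514, 545 and 508 CPM, the steadiest of the 8 with a coefficient of variation of 3.77%. Tbr1, a factor of deep-layer neurons, had 189, 239 and 170 CPM. Dcx, a microtubule protein of migrating neurons, had 554, 710 and 537 CPM, and library 2 was the highest for both. On the TPM scale, Neurog2 (580 ± 166) and Neurod2 (502 ± 26.9) stood above Eomes (196 ± 71.4), Dcx (143 ± 24.8), Tbr1 (110 ± 21.3), Hes5 (97.2 ± 12.7) and Sox2 (92.2 ± 10.7), with Pax6 (24.97 ± 7.52) the lowest (SD, n = 3). Hes5 and Sox2 did not differ beyond their spread, and the SDs of Neurog2 and Neurod2 overlapped. The levels of neuronal genes thus lay among those of progenitor genes, in cells whose source is labelled cortical progenitors.

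Cytoskeletal genes led the transcriptome. Tmsb4x, which encodes thymosin beta 4, a protein that binds actin monomers, ranked first among protein-coding genes at 8925 ± 1531 TPM (SD, n = 3). It had 3222 CPM in library 1 and 4498 and 4460 CPM in libraries 2 and 3, so library 1 was the lowest. Tuba1a, the main alpha-tubulin of young neurons, had 5508 ± 1033 TPM, and the cytoplasmic actin Actb had 5394 ± 269 TPM, a difference smaller than the spread. Only 24.4% of the 50-base windows of the longest Tuba1a transcript occurred in no other gene, so its count depended on how reads shared with other tubulins were treated and is uncertain. Marcksl1, a membrane-bound regulator of actin, had 3955 ± 19.8 TPM and was even at 2081, 2066 and 2165 CPM. Further cytoskeletal genes among the 20 highest were Basp1 (2538 TPM), Tubb5 (2455 TPM), Jpt1 (1940 TPM) and Cfl1, cofilin (1809 TPM).

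The other leading genes came from several groups. The mitochondrial genes mt-Cytb and mt-Nd1, subunits of respiratory complexes III and I, had 6686 ± 278 and 4923 ± 513 TPM. Nnat, an imprinted gene for a small membrane protein of developing brain, averaged 3147 TPM but was uneven. It had 1544 and 1419 CPM in libraries 1 and 3 and 2741 CPM in library 2. Neurod6, a basic helix-loop-helix (bHLH) factor of cortical excitatory neurons, ranked 8th at 3107 ± 296 TPM, the highest transcription factor of all those listed. Selenow, a small selenoprotein, had 2662 TPM. Calm2, a calmodulin gene, had 2134 TPM, and Ywhae, a 14-3-3 adaptor, 2440 TPM. H3f3b, which encodes the replication-independent histone H3.3, had 2246 TPM. Fabp7, the brain lipid-binding protein of radial glia, had 1961 ± 456 TPM. Gm20721 (2756 TPM), Sox4 (2063 TPM) and the ubiquitin gene Ubb (1801 TPM) complete the 20, but only 13.2%, 46.1% and 39.3% of their windows were unique, so their levels are uncertain. Over all detected protein-coding genes, 458 (3.62%) had less than 50% unique windows.

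**Figure D1:**
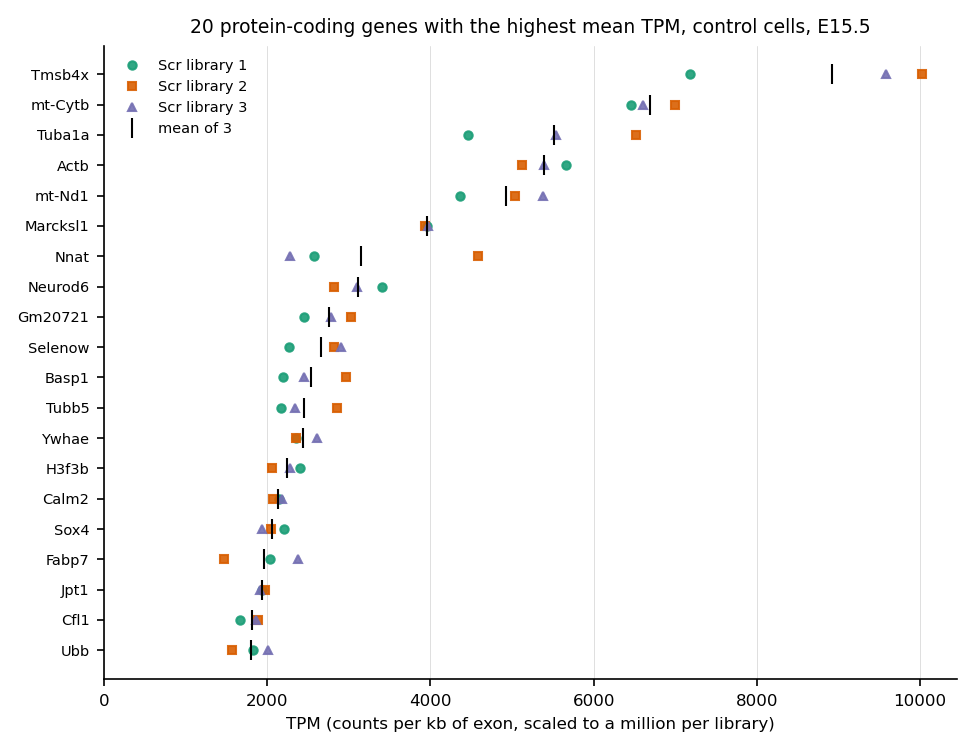
Level of the 20 protein-coding genes with the highest mean TPM in each control library, on a linear axis from 0 (circles, squares and triangles for libraries 1, 2 and 3, black bar for the mean of 3). Tmsb4x has the highest mean, but in library 1 its 7176 TPM lies near the 6463 TPM of mt-Cytb. Nnat is the gene whose library 2 lies farthest from the other libraries relative to its level.

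Short gene models that encode no protein took a large part of TPM and little of the counts. Genes annotated as microRNA held 6.06% of TPM and 0.147% of CPM, led by Gm23935, a model of 57 bases with 40600 TPM and 768 CPM. Protein-coding genes held 79.8% of TPM and 94.9% of CPM. Ranks above are therefore given among protein-coding genes. Scaled over those genes alone, the share held by the 100 highest rose to 19.2%.

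The promoters of the highest gene and of the highest transcription factors are shown because they head the lists of levels. The sequences are the 250 bases before the start in RefSeq's GRCm38.p6 table, printed 5′ to 3′ along the gene's strand, which is the minus strand for all 3. Capitals mark CCAAT boxes, the letters CCAAT or their reverse complement ATTGG, searched on both strands. Tmsb4x lies at chrX:167209219-167209468, Neurod6 at chr6:55681264-55681513 and Sox4 at chr13:28953700-28953949.
Tmsb4x: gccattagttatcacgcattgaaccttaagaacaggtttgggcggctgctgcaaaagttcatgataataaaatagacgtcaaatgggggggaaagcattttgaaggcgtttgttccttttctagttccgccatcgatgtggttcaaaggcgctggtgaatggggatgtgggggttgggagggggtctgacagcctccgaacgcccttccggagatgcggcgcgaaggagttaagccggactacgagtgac
Neurod6: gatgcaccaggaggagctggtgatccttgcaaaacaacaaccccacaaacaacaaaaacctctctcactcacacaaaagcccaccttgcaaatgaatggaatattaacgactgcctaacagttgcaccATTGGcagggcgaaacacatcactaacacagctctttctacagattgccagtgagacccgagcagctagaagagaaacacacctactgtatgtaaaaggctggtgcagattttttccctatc
Sox4: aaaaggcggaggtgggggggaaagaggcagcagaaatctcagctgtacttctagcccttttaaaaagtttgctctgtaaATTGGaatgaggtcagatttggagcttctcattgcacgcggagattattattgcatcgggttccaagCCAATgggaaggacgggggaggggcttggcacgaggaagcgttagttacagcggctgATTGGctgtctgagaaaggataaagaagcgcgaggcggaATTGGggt
Neurod6 held 1 CCAAT box, 122 bases before the start, and Sox4 held 4, at 171, 104, 47 and 8 bases before it. For the shares, CCAAT was searched in windows that also hold the 50 bases after the start. It was present in 37.4% of all windows of the table and in 43.5% of detected protein-coding genes with a window. A TATA box, searched as TATAAA 50 to 15 bases before the start, was in 5 of 69 windows of the 100 highest genes (7.25%) and in 1.37% of detected genes. Neither motif was found in the Tmsb4x window, which says only that these letters are absent there.

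Transcription factors were many, and a few of them dominated. Of 694 listed genes, 439 were detected and 104 had no count in any library. Together they held 2.49% ± 0.109 of TPM (SD, n = 3), and the 10 highest made up 42.8% of that share. The bHLH family of proneural and neuronal factors held 19.2% of the class. Besides Neurod6 (3406, 2815 and 3100 TPM), it included Neurog2, Neurod2 and Neurod1 (334 ± 102 TPM). Library 1 was the highest for Neurod6, Neurog2 and Neurod1. The SOX family held 13.99% of the class, most of it from Sox4 and Sox11, partners in neuronal differentiation: Sox11 had 1030, 886 and 998 TPM. Id2, which blocks bHLH factors by dimerising with them, had 796, 920 and 970 TPM and was the highest of the ID family.

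Factors that act at the transition from progenitor to neuron were also near the top. Insm1, a zinc finger protein that promotes intermediate progenitors, had 768, 530 and 746 TPM, with library 2 lowest. Hes6, an antagonist of Notch-induced repressors, had 658, 455 and 533 TPM in the same order. The nuclear factor I genes, which drive glial and neuronal maturation, spanned a wide range: Nfib had 516 ± 40.4 TPM, Nfix 368 ± 27.0 TPM, Nfia 126 ± 2.20 TPM and Nfic 18.2 ± 2.96 TPM. Zbtb18, a repressor needed for cortical neuron differentiation, had 445 ± 40.4 TPM. Stress-responsive leucine zipper factors among the 15 highest were Jund (804 ± 62.6 TPM, 51.2% unique windows) and Atf4 (305 ± 50.2 TPM).

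Factors that give the cortex its regional identity were present at moderate levels. Lhx2, a selector of cortical fate, had 255 ± 56.7 TPM and was the highest LIM homeobox gene. The POU gene Pou3f1 had 247 ± 39.8 TPM, and Pou3f2 had 391, 211 and 354 CPM. Dmrta2, which promotes cortical over ventral fate, was low at 23.2 ± 10.1 TPM. Of 9 PAX genes only Pax6 exceeded 10 CPM, and 4 had no count. Of 15 T-box genes, 3 were detected, led by Eomes and Tbr1. Among other families, the highest members were Thra (164 TPM) for nuclear receptors, Mycn (251 TPM) for the MYC network, Smad4 (252 TPM), Tcf4 (165 TPM) for E proteins, Nfyb (149 TPM), Tfdp1 (122.8 TPM), Tead2 (114 TPM), Hif1a (114 TPM), Trp53 (108 TPM), Sp3 (93.6 TPM), Cbfb (70.3 TPM), Gabpa (44.7 TPM), Rela (43.3 TPM), Mef2c (27.6 TPM) and Tcf7l1 (8.53 TPM). Among factors of neuronal layers, Fezf2, of deep layers, had 103, 150 and 122 CPM, and Cux1, of upper layers, had 225, 248 and 259 CPM.

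Receptors held a smaller share, 0.562% ± 0.0540 of TPM, with 246 of 376 genes detected. One gene stood well above the others. Sstr2, a somatostatin receptor that is also a marker of intermediate progenitors, had 1022, 565 and 683 TPM, with library 1 highest and library 2 lowest. The next was Grina at 254 ± 29.5 TPM, a membrane protein of the TMBIM family listed with glutamate receptors because of its symbol. Adgrg1 (GPR56), an adhesion receptor that anchors radial glia to the basement membrane, had 201 ± 23.9 TPM.

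Guidance and matrix receptors filled much of the list. Ptprs, a phosphatase receptor for proteoglycans, had 166 ± 22.2 TPM. Epha3, a receptor for ephrins on neighbouring cells, had 210, 136 and 129 TPM, and Epha4 had 86.7 ± 14.49 TPM. Nrp1, the co-receptor for class 3 semaphorins, was the steadiest of the 15 highest at 277, 268 and 268 CPM. Ddr1, a collagen receptor kinase, had 120 ± 20.8 TPM. Robo2, which reads Slit cues, led its family at 50.4 TPM.

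Receptors for secreted growth and patterning signals covered a wide range of levels. For Wnt ligands, Fzd2 had 103 ± 26.2 TPM (130, 77.3 and 101 TPM) and Fzd3 had 62.5 TPM. Gas1, a co-receptor for Hedgehog proteins, had 114 ± 20.7 TPM, with 82.9% unique windows. Acvr2b, an activin receptor, had 118 ± 12.1 TPM. Lrp8, a receptor for reelin, had 74.9 ± 18.97 TPM. Fgfr1 (29.3 TPM), Igf1r (20.1 TPM), Notch1 (13.3 TPM) and Ntrk3 (11.04 TPM) were the highest of their families. All 4 Notch receptors were detected, and their summed level was 23.9 TPM.

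Neurotransmitter receptors were mostly low, and several were highest in library 2. Gria2, a subunit of AMPA receptors, had 522, 590 and 513 CPM. Of 27 listed glutamate receptor genes, 9 had a mean of at least 10 CPM, and 8 of these were highest in library 2, against 36.7% of all protein-coding genes at that level. The 9 and the 8 include Grina, listed because of its symbol, at 181, 185 and 154 CPM. Of the 9, 4 differed by at least 2-fold between libraries, against 5.60% of protein-coding genes with at least 10 CPM. One of them was Gria1, another AMPA receptor subunit, at 16.3, 68.3 and 25.9 CPM. Without library 2, 7 of these genes had at least 10 CPM and 0 of the 7 differed that much. Part of the 9 thus passed this level only through library 2, which favours it in these counts. Gabbr1, a subunit of the GABA-B receptor, had 31.2 TPM, and the cannabinoid receptor Cnr1 had 98.8, 208 and 134 CPM. Ifngr2, a chain of the interferon gamma receptor, had 126, 203 and 140 CPM, and the orphan receptor Gpr85 had 103, 185 and 142 CPM. Both were highest in library 2. Ackr3, a scavenger of the chemokine CXCL12, had 20.6, 71.8 and 38.6 CPM.

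Adhesion molecules held 0.532% ± 0.0615 of TPM, with 220 of 305 genes detected. Bsg, basigin, an immunoglobulin protein that escorts lactate transporters to the membrane, led with 652 ± 77.2 TPM. Ctnnb1, beta-catenin, which links cadherins to actin and also carries the Wnt signal, had 1004, 979 and 979 CPM, a range of 1.03-fold. It had 574 ± 17.9 TPM, below Bsg by little more than the SD of Bsg. The junction partners of beta-catenin were lower: Cdh2, N-cadherin, had 144 ± 18.4 TPM, and Ctnna1, alpha-catenin, had 64.8 ± 6.54 TPM.

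The next adhesion genes encode proteins with leucine-rich repeats or immunoglobulin domains. Lrrn3 had 309, 175 and 190 TPM, with library 1 highest. Mpzl1 had 204 ± 14.4 TPM, Igsf8 186 ± 31.3 TPM, Igsf21 80.6 ± 18.6 TPM and Lrfn4 71.0 ± 8.72 TPM. Ncam1, the neural cell adhesion molecule, had 347, 701 and 424 CPM, a 2.02-fold range with library 2 highest. Itgb1, the common beta chain of laminin-binding integrins, had 163 ± 25.1 TPM. Lrrc4b (66.6 ± 2.48 TPM) and Gjc1, connexin 45 (66.1 ± 2.41 TPM), were among the steadiest. Jam3 led the tight junction genes at 81.2 ± 16.98 TPM. Cldn5, a claudin of blood vessels, came next on its mean of 69.4 TPM, but its libraries had 28.5, 64.2 and 3.90 CPM, so it was not evenly present.

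Families of synaptic and repulsive adhesion were detected at low levels. Of 57 clustered protocadherins, which label single neurons for self-avoidance, 49 were detected, and the median over all 57 was 2.23 TPM. Their median share of unique windows was 54.8%, so single members are uncertain. The highest was Pcdhgc3 at 19.04 TPM, with 23.7% unique windows. All 9 neurexins, neuroligins and calsyntenins had at least 10 CPM and were highest in library 2, against 36.7% of all protein-coding genes at that level, led by Clstn1 (53.8, 93.5 and 55.7 CPM). With TMM scaling 7 of the 9 were highest there, against 34.7% of all, and with DESeq2 size factors 8. In the family of leucine-rich repeat adhesion proteins, 17 of 22 were highest in library 2 (16 with TMM scaling), against the same shares. Cntn2 (57.7 TPM), Cadm1 (59.4 TPM), Pcdh8 (46.5 TPM), Celsr2 (40.4 TPM) and Tenm4 (40.7 TPM) were the highest of their families.

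**Figure D2:**
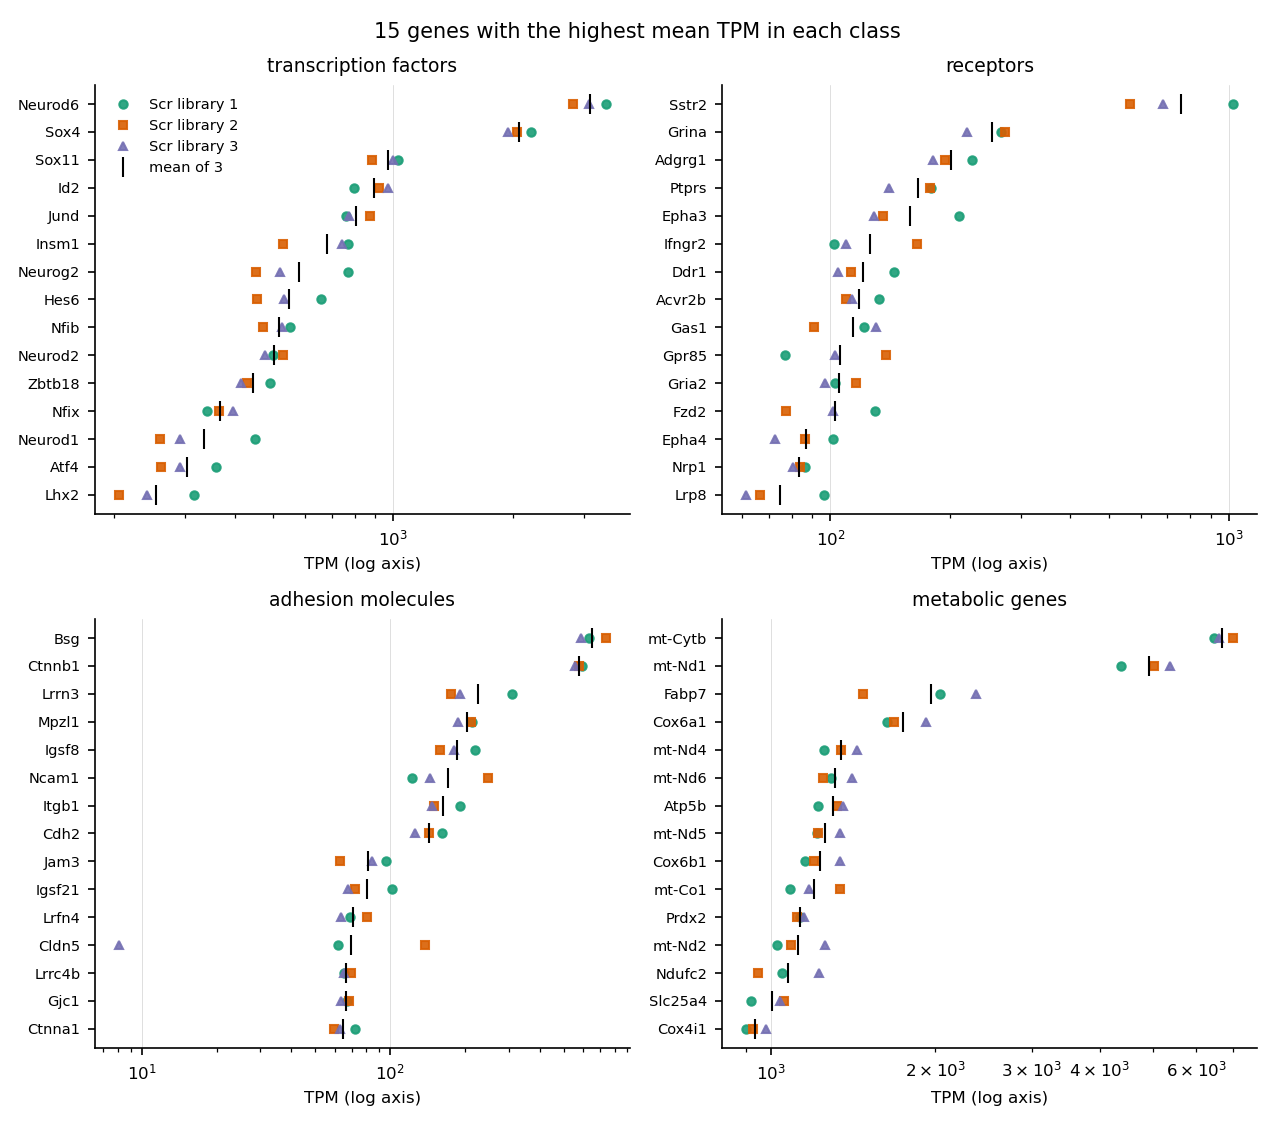
Level of the 15 highest genes of each of 4 classes in each control library, on log axes whose ranges differ between panels (circles, squares and triangles for libraries 1, 2 and 3, black bar for the mean). Neurod6 and Sox4 lead transcription factors, Sstr2 leads receptors, Bsg and Ctnnb1 lead adhesion molecules, mitochondrial genes lead metabolism, and Cldn5 is the widest at 8.10 to 138 TPM.

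Metabolic genes were both common and abundant. Of 351 listed genes, 333 were detected (94.9%, against 63.3% of transcription factors), and the median of the detected genes was 71.4 TPM. They held 6.89% ± 0.312 of TPM, and energy production in mitochondria made up most of it. The 13 mitochondrially encoded subunits held 25.9% of the class, nuclear complex I genes 14.2%, complexes III and IV with cytochrome c 13.8%, and ATP synthase with the ADP carriers 9.61%. After mt-Cytb and mt-Nd1, the highest were Cox6a1 (1747 ± 157 TPM), mt-Nd4 (1344 TPM), mt-Nd6 (1314 TPM), Atp5b (1298 ± 70.5 TPM), mt-Nd5 (1258 TPM), Cox6b1 (1232 TPM) and mt-Co1 (1200 TPM). Ndufc2, of complex I, had 1074 ± 141 TPM, Slc25a4, an ADP carrier, 1004 TPM, Cox4i1 936 TPM and mt-Nd2 1124 TPM.

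The mitochondrial genome was unevenly counted. Only 37.6% of mt-Nd4 windows and 48.7% of mt-Co1 windows were unique, so both are uncertain. Several mitochondrial genes were nearly absent from the counts: mt-Co3 had 1.65, 1.93 and 1.62 CPM, mt-Co2 had 0.786, 1.15 and 0.899 CPM, and mt-Nd3 had no count. From 41.5 to 44.4% of the entries listed for a library had been set aside as not uniquely aligned. The part of this in those values was not tested.

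Nuclear genes of oxidative phosphorylation shared a library order. Of 37 complex I genes, 33 were highest in library 3, as were 21 of 21 genes of complexes III and IV and 15 of 17 of ATP synthase with the ADP carriers. Over all protein-coding genes with at least 10 CPM, library 3 was the highest for 27.4%. The differences were small: median coefficients of variation were 8.30%, 9.78% and 10.1%, and 0 of these genes reached a 2-fold range. Cox6a1 had 376, 386 and 459 CPM. With TMM scaling the counts were 34, 21 and 15, against 33.6% of all. Of 58 cytosolic ribosomal protein genes with at least 10 CPM, 44 were highest in library 3 (48 with TMM scaling), and the median share of unique windows in this family was 66.0%.

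Carbon metabolism outside the respiratory chain was led by a few enzymes. Ldhb, the lactate dehydrogenase subunit that favours pyruvate, had 585 ± 73.0 TPM, and Pkm, pyruvate kinase, 457 ± 30.2 TPM. Ldha, the other lactate dehydrogenase subunit, had 266, 376 and 520 CPM, with library 3 highest. Gapdh was counted at only 5.50, 6.59 and 5.93 CPM, although it is a glycolytic enzyme of all cells. It has many near-identical pseudogene copies, so its count is uncertain. Glucose entry was led by Slc2a1 (53.1, 90.1 and 42.1 CPM). Idh1 (634 ± 74.9 TPM) and Sdhb (515 ± 27.4 TPM) led the citrate cycle list, and Taldo1 (516 ± 42.7 TPM) led the pentose phosphate pathway. Cs, citrate synthase, had 327, 328 and 326 CPM and was one of the 5 steadiest protein-coding genes above 100 CPM. Ckb, the brain creatine kinase, had 892 ± 80.0 TPM, and Prdx2, a peroxiredoxin, 1133 ± 17.98 TPM.

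Biosynthetic genes were present across pathways. Rrm2, the ribonucleotide reductase subunit of dividing cells, had 523, 365 and 547 CPM and led nucleotide synthesis, with library 2 lowest. Fabp7 led the list of fatty acid synthesis and desaturation with 1961 of its 3149 TPM, although it encodes a lipid-binding protein and not an enzyme. Scd2 (278 ± 33.4 TPM), a fatty acid desaturase of brain, came next, and Etfa (172 ± 22.9 TPM) led fatty acid oxidation. Cholesterol synthesis was detected throughout, 21 of 21 genes, led by Acat2 (289 ± 23.8 TPM, 54.3% unique windows) and Hmgcs1. Hmgcs1, an early enzyme of the pathway, had 245, 377 and 275 CPM. Of 20 cholesterol genes with at least 10 CPM, 15 were highest in library 2 (13 with TMM scaling) and 17 were lowest in library 1, against 36.7% and 28.8% of all protein-coding genes. Only 1 of the 20, Insig1, a brake on the pathway, reached a 2-fold range, and it ran the other way at 64.0, 41.4 and 27.9 CPM.

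**Figure D3:**
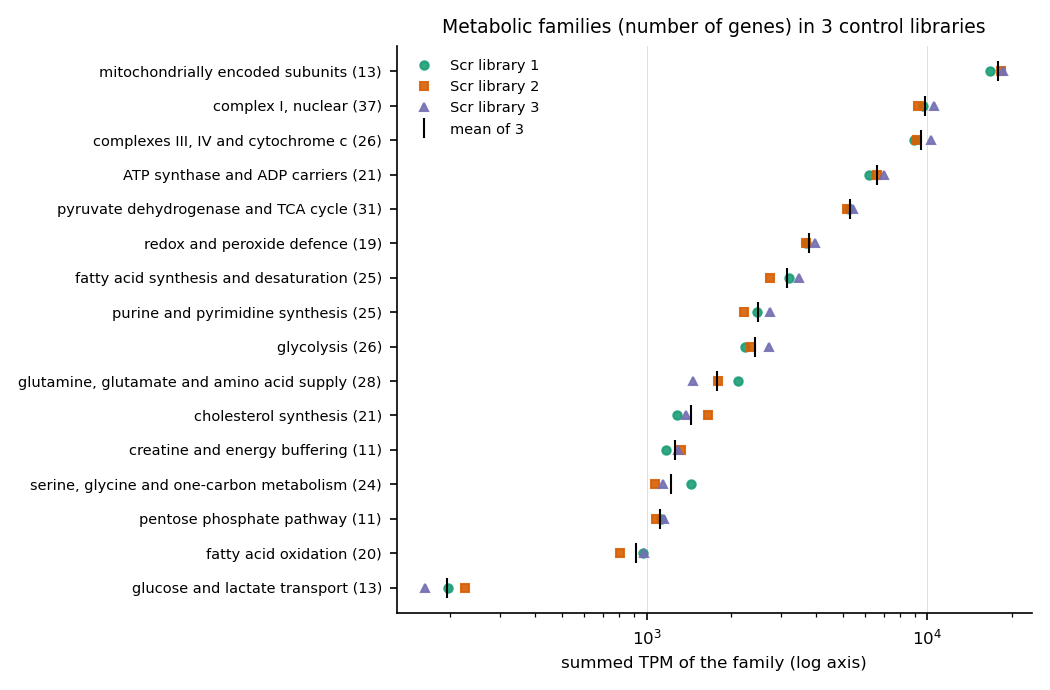
Summed TPM of 16 metabolic families in each control library, on a log axis (number of genes in brackets, circles, squares and triangles for libraries 1, 2 and 3, black bar for the mean). Mitochondrially encoded subunits are highest, the 3 nuclear respiratory families have library 3 at the right, and amino acid supply spreads from 1464 TPM in library 3 to 2107 TPM in library 1.

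Cell types were compared as the summed CPM of lists of marker genes taken from general knowledge. Radial glia genes summed to 3886, 2871 and 4043 CPM in libraries 1, 2 and 3, and intermediate progenitor genes to 5157, 3262 and 4229 CPM. Genes of cortical excitatory neurons summed to 9028, 10594 and 9207 CPM. Cell cycle genes summed to 6433, 5041 and 7115 CPM. By these sums library 2 was the lowest for each progenitor list and the highest for the neuron list. Single genes followed: library 2 was lowest for 21 of 24 radial glia genes, 14 of 15 intermediate progenitor genes and 29 of 30 cell cycle genes, against 39.9% of all protein-coding genes with at least 10 CPM. Library 3 was highest for 28 of the 30 cell cycle genes, for example Cdk1, the kinase that starts mitosis (211, 142 and 254 CPM). The other 2 were Top2a (428, 275 and 393 CPM) and Aurkb (128, 93.7 and 118 CPM), highest in library 1. The cell cycle gene not lowest in library 2 was Ccnd2, a cyclin of radial glia, which was even at 1162, 1221 and 1224 CPM. Library 1 was highest for 12 of 15 intermediate progenitor genes, against 35.9% of all.

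The neuron list was mixed. Library 2 was highest for 18 of 27 genes (17 with TMM scaling), against 36.7% of all protein-coding genes with at least 10 CPM. They included Tubb3, a neuronal tubulin (562, 1001 and 623 CPM), Stmn2, a growth cone protein (357, 770 and 521 CPM), and Bcl11b, a factor of deep-layer and striatal neurons (263, 674 and 306 CPM). Library 2 was lowest for 7 of the 27. Among these was Neurod6, the highest gene of the list, at 2399, 1981 and 2264 CPM. Rnd2, a GTPase of migrating neurons, was also lowest there at 904, 543 and 789 CPM, as was Slc17a6, a vesicular glutamate transporter, at 257, 129 and 185 CPM. Of 25 stathmins, microtubule-associated proteins and other microtubule regulators with at least 10 CPM, 21 were highest in library 2, and 7 differed by at least 2-fold, against 5.60% of all protein-coding genes. Without library 2, 0 of 25 did.

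Markers of inhibitory neurons, which arise outside the cortex, differed between the libraries. The list of 23 genes summed to 447, 1622 and 613 CPM, 3.63-fold more in library 2 than in library 1. Of its members, 22 were detected, 17 had at least 10 CPM and 14 of these differed by at least 2-fold, all 14 with library 2 highest. Over all protein-coding genes at that level, 5.60% differed by as much and 4.12% did so with library 2 highest. Dlx1, a homeobox gene of inhibitory lineages, had 81.1, 312 and 109 CPM. Dlx2 had 65.3, 201 and 73.2 CPM. Gad2, which makes GABA, had 40.3, 143 and 52.1 CPM, and Sst, somatostatin, 4.17, 49.3 and 15.4 CPM. Isl1, a factor of striatal neurons, had 8.17, 83.1 and 21.3 CPM. Sp9, a zinc finger factor, had 46.0, 194 and 62.2 CPM. Without library 2 only 11 members had at least 10 CPM, so part of the 17 passed this level through library 2 alone. This favours library 2 in the counts above. Of the 11, 2 still differed 2-fold. The list averaged 530 CPM without library 2, and Dlx1, Dlx2 and Gad2 stayed above 40 CPM in libraries 1 and 3. Nkx2-1, which marks the medial ganglionic eminence, was near the floor at 0.472, 3.80 and 0.480 CPM. The part of inhibitory neurons in the other differences of library 2 was not tested.

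Vessel, blood and immune markers were uneven between the libraries. The 16 endothelial genes summed to 118, 279 and 18.1 CPM, a 15.4-fold range with library 3 lowest, and pericyte genes to 82.7, 148 and 36.3 CPM. Red blood cell genes summed to 252, 859 and 568 CPM, led by the globin gene Hbb-bs (84.6, 328 and 217 CPM). Per length Hbb-bs was abundant at 824 ± 484 TPM, but its windows were 34.5% unique, so its level is uncertain. Microglia genes summed to 45.2, 95.6 and 126 CPM, highest in library 3, and the defining genes Csf1r and C1qb had at most 17.4 and 14.1 CPM. Astrocyte genes summed to 49.8, 92.5 and 73.6 CPM with Agt at 0, and oligodendrocyte precursor genes to 23.6, 63.7 and 36.6 CPM. Cajal-Retzius genes summed to 39.8, 40.9 and 30.6 CPM. The meningeal list gave 210, 137 and 118 CPM, of which the chemokine Cxcl12 alone gave 191, 106 and 103 CPM, while Col1a1 stayed at 4.72, 7.45 and 4.20 CPM and Aldh1a2 at 0. Choroid plexus genes summed to 3.22, 18.1 and 2.04 CPM, with Ttr, its most abundant transcript, at 14.9 CPM in library 2 and 0 in the others. Cortical hem genes summed to 30.8, 44.8 and 45.1 CPM, with Wnt3a, Wnt8b and Msx2 at 0. Immediate early genes, which rise with handling stress or activity, had an even sum at 1131, 1187 and 1134 CPM. Jund alone gave 416, 478 and 439 CPM of it, and single members were less even. Of 11 with at least 10 CPM, 2 differed by at least 2-fold (18.2%), against 5.60% of all protein-coding genes. Library 1 was highest for 1 of them and library 2 for 1.

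**Figure D4:**
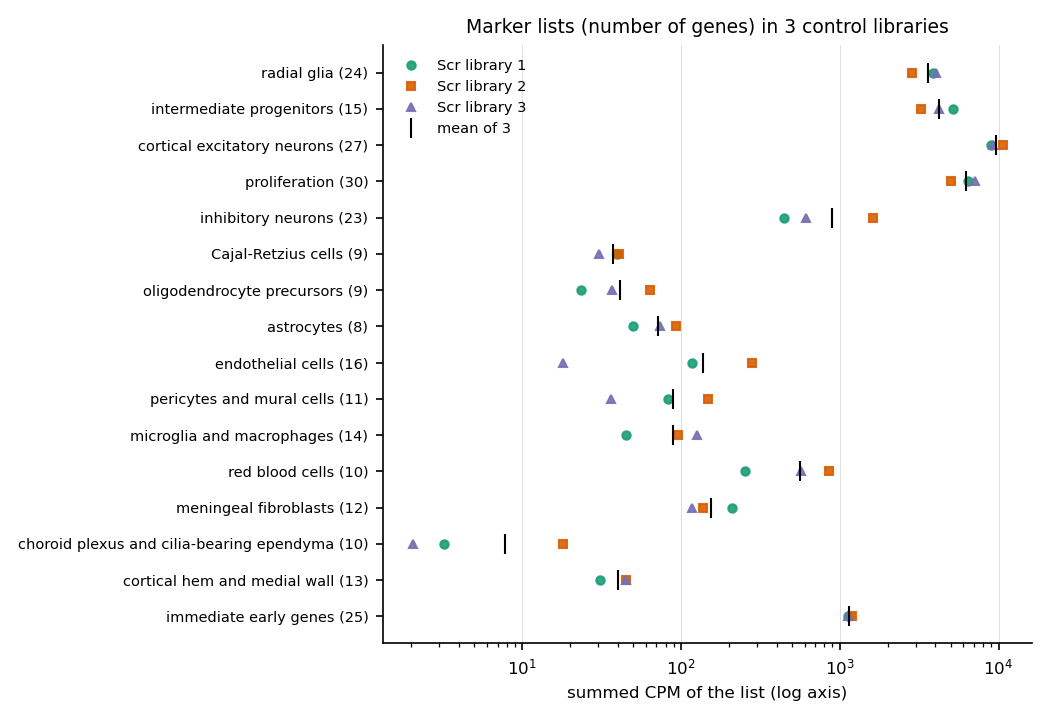
Summed CPM of 16 marker lists in each control library, on a log axis (number of genes in brackets, circles, squares and triangles for libraries 1, 2 and 3, black bar for the mean). Cortical lists lie to the right with library 2 lowest for progenitors, inhibitory neurons have library 2 alone at 1622 CPM, and endothelial genes spread from 18.1 to 279 CPM.

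The spread between control libraries was small for most genes. The median coefficient of variation was 30.7% for protein-coding genes with 1 to 10 CPM, 12.4% from 10 to 100 CPM, 8.89% from 100 to 1000 CPM and 8.42% above. Counting error alone gave medians of 14.02%, 4.30%, 2.07% and 0.662% over these ranges. Strap, a subunit of an RNA-processing complex, was the steadiest gene above 100 CPM at 347, 347 and 346 CPM, followed by Gdap1l1, Cs, Srsf1 and Rbm18.

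A gene is called variable below when its highest library exceeded its lowest by at least 2-fold at a mean of at least 10 CPM. Of 9645 protein-coding genes, 540 (5.60%) were variable, and of all 10499 genes, 597 (5.69%). Library 2 was the highest for 397 of the 540 (4.12% of genes tested), library 1 for 89 (0.923%) and library 3 for 54 (0.560%). Without library 2, 109 of 9513 genes were variable. The classes differed. Of adhesion molecules, 30 of 128 (23.4%) were variable, 29 of them highest in library 2, and 5 of 122 without it. Receptors had 22 of 134 (16.4%), 21 highest in library 2, and 1 of 124 without it. Transcription factors had 38 of 326 (11.7%), 26 highest in library 2, and 5 of 316 without it. In these classes fewer genes had at least 10 CPM without library 2, so some passed this level only through it. Metabolic genes had 12 of 288 (4.17%), below the share of all genes. Without library 2 they had 8 of 291, above the share of all genes. By any amount, libraries 1, 2 and 3 were highest for 35.9%, 36.7% and 27.4% of protein-coding genes and lowest for 28.8%, 39.9% and 31.2%.

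The 15 genes with the widest range were mostly vascular. Kdr and Flt1, receptors for vascular endothelial growth factor, had 6.84, 24.9 and 0.959 CPM and 11.8, 35.5 and 1.98 CPM. Pecam1, Cd34, Eng, Adgrl4, Cldn5, Aplnr, Gja4 and Cav1, all expressed in endothelium, had the same order, with library 2 highest and library 3 lowest. So did the iron exporter Slc40a1 at 4.64, 28.4 and 0.719 CPM. Rxrg, a retinoid receptor found in striatal neurons, had 1.73, 44.3 and 13.7 CPM. Spp1, osteopontin, had 4.40, 47.7 and 89.0 CPM. Rpl26 was counted at 0.864, 1.07 and 28.8 CPM with 50.8% unique windows, and Ftl1-ps1 at 0.472, 22.99 and 12.2 CPM with 6.74%, so both are uncertain. Most of these genes reached the minimum mean of 10 CPM only through library 2. Without it, Kdr, Flt1, Pecam1, Eng, Adgrl4, Aplnr, Gja4, Cav1, Slc40a1, Rxrg and Ftl1-ps1 averaged less, from 1.67 CPM (Gja4) to 8.35 CPM (Aplnr). Cd34, Cldn5, Spp1 and Rpl26 stayed above 10 CPM without library 2, but Rpl26 averaged 0.969 CPM without library 3.

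**Figure D5:**
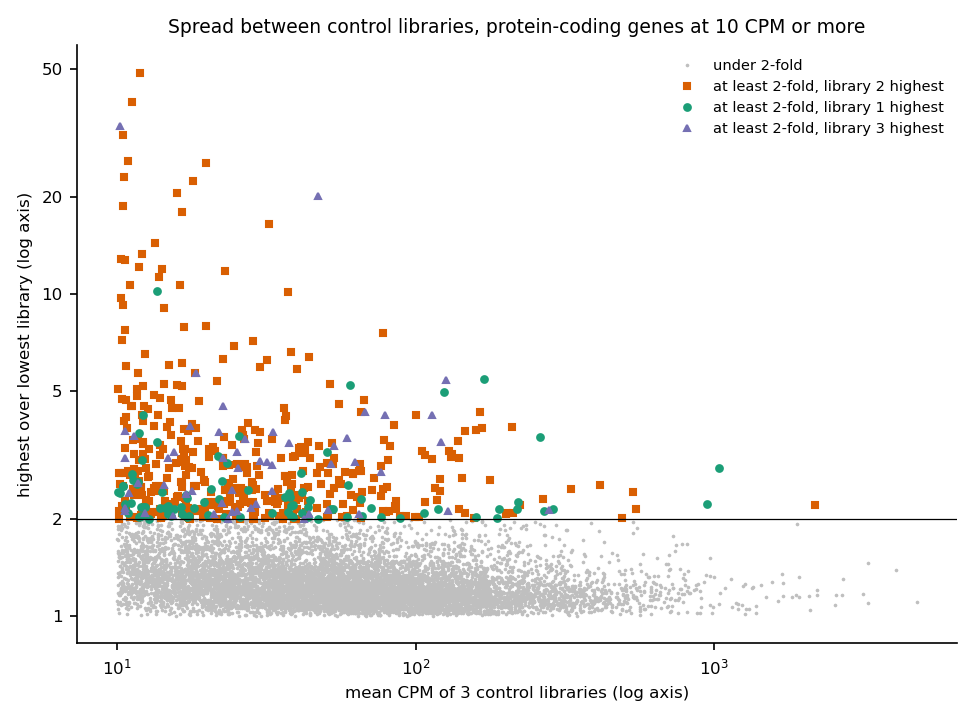
Ratio of the highest to the lowest control library against mean CPM for 9645 protein-coding genes, both on log axes (grey points under 2-fold, coloured symbols at or above it by the library that was highest, black line at 2-fold). Library 2 (squares) makes up 397 of the 540 variable genes, and nearly all of the widest ratios lie at low CPM.

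Amino acid supply was the metabolic group with the most variable members, 5 in number. Of 23 genes of this group with at least 10 CPM, 5 were variable, 4 of them highest in library 1, against 5.60% and 0.923% of all protein-coding genes. Without library 2, 4 of 23 were variable, against 109 of 9513. Slc7a5, which imports large neutral amino acids, had 287, 168 and 52.6 CPM, a 5.47-fold range. Slc3a2, the subunit that pairs with Slc7a5, had 277, 224 and 141 CPM. Asns, which makes asparagine, had 230, 98.6 and 46.2 CPM. Among genes of serine and one-carbon metabolism, Shmt2, the mitochondrial serine hydroxymethyltransferase, had 295, 139 and 137 CPM, and Phgdh 75.7, 35.0 and 47.7 CPM (37.3% unique windows). Mat2a, which makes the methyl donor, led that family at 262 ± 4.13 TPM, and Srm, spermidine synthase, led amino acid supply at 284 ± 28.2 TPM. Both were even between libraries. Slc7a3, a cationic amino acid transporter, had a 10.2-fold range at 31.8, 5.73 and 3.12 CPM, and it reached a mean of 10 CPM only through library 1.

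A wider list of 48 genes known to rise when amino acids are scarce was written after these values had been seen, so it describes and does not test. Of 37 members with at least 10 CPM, 29 were highest in library 1, 8 in library 2 and 0 in library 3, under count, TMM and DESeq2 scaling alike. Over all protein-coding genes at that level, library 1 was highest for 35.9%. Variable members numbered 13, of which 11 were highest in library 1, against 5.60% and 0.923% of all. Besides those above they included the translation inhibitor Eif4ebp1 (45.2, 18.98 and 12.4 CPM), the factor Atf5 (21.6, 11.9 and 8.87 CPM) and the chaperone Hyou1 (76.9, 50.9 and 23.8 CPM). Atf4, the factor known to drive many of these genes, had 278, 202 and 234 CPM, and library 1 was the highest.

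Promoters of this group were searched for TGATGNAA, the core of the element through which Atf4 acts with a C/EBP partner, on both strands. The windows searched also hold the 50 bases after the start. It was present in 5 of the 41 amino acid and one-carbon genes with a window (12.2%), in 3.97% of all windows and in 2.56% of detected protein-coding genes. The 5 genes were Slc7a11, Asns, Slc1a4, Pycr1 and Got1, and only Asns and Pycr1 of these were highest in library 1. Those of the 52 genes without a window, Slc7a5 and Slc7a3 among them, were not searched. Pycr1, which completes proline synthesis, had 58.6, 44.7 and 40.8 CPM. Both windows are shown because they hold the motif in genes with the library order described, as the 250 bases before the start from RefSeq's GRCm38.p6 table. Both genes lie on the minus strand, Asns with its window at chr6:7693210-7693459 and Pycr1 at chr11:120643749-120643998. Capitals mark TGATGNAA, and in Pycr1 also CCAAT boxes.
Asns: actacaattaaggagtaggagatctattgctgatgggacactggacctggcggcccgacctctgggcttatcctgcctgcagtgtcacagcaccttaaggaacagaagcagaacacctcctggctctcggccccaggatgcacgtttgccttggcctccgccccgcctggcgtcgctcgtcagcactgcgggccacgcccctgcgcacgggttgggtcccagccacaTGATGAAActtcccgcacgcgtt
Pycr1: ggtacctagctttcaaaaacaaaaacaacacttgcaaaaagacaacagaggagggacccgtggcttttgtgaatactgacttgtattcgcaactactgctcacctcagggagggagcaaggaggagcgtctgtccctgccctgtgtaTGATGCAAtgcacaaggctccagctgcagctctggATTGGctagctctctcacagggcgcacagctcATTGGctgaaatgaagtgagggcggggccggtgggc
The match begins 23 bases before the start in Asns and 103 bases before it in Pycr1. Slc1a4 was highest in library 2 at 25.4, 47.3 and 17.3 CPM, and Got1 was lowest in library 1 at 78.0, 93.0 and 93.1 CPM. A match is a description of letters and not a measured site.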

How the data were processed

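RNA was measured by sequencing 3 control libraries (Scr, replicates 1 to 3). The members and gene lists were chosen with earlier results of these data known. The authors deposited whole-number counts per gene without normalization. HISAT2 2.1.0, HTSeq 0.11.0, DESeq2 1.18.1 and the build mm10 (GRCm38) are listed, without their roles, in the submitters' processing notes. Annotation and strand setting were not given in the sources used here, so overlapping and antisense genes are uncertain.

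GENCODE M21 gave symbols for 54079 of the 54146 genes per table, leaving 67 unnamed. Summary lines were left out of totals. Of all listed entries, genes and summary lines together, 21.9 to 22.5% fell in genes and 28.8 to 30.9% in no feature. A further 0.357 to 0.364% were ambiguous and 4.48 to 5.12% not aligned. Whether a read with several alignments was listed more than once is not known, so these need not be shares of reads. Reads carry no molecular identifiers, so counting error is a lower limit. Depth set a floor of 3 counts, 0.180 to 0.236 CPM.

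CPM used the sum over genes, and TPM the merged exon length in GENCODE M21. Unique windows are 50-base windows, taken every 10 bases of the longest transcript, found in no other gene. Genes were named by rule: the 8 markers, the 20 highest by TPM, the 15 highest of each class, the highest of each family, the 15 widest ranges at a mean of at least 10 CPM and the 4 highest of each marker list. Other genes named were chosen after their values were seen. No test between groups was made, since there is 1 group. Scaling factors came from edgeR 4.0.16 and DESeq2 1.42.0 in R 4.3.3. The scripts were tested on simulated data. All columns of the 3 tables could be assigned. Some genes that the rule names are not reported here.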

Additional observations from a re-analysis of the deposited data

How the results depend on the processing

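The number of detected genes, 15992 by mean CPM, stayed within 1.5 times under each alternative run. Leaving out library 2 moved the mean summed CPM of 3 marker lists by over 1.5 times, from 138 to 68.0 for endothelial cells, from 894 to 530 for inhibitory neurons and from 7.79 to 2.63 for choroid plexus. For pericytes it moved from 88.9 to 59.5. The 3-library means of the 152 named genes each stayed within 1 SD under TMM and DESeq2 scaling. TMM factors ran only from 0.982 to 1.01, so these means could hardly move. The comparison does not bear on differences between libraries. The number of variable genes, 597, was 2549 at a minimum of 1 CPM and 13622 with no minimum, and it ranged from 128 to 492 when a library was left out, lowest without replicate 2. Class shares of TPM depended on the length scale. As a share of counts they were 4.07% for transcription factors, 1.25% for receptors, 1.01% for adhesion molecules and 4.90% for metabolic genes. Over protein-coding genes alone, a setting added after the data were seen, they were 3.12%, 0.705%, 0.667% and 8.64%, and the 100 highest genes held 19.2%. With the longest transcript as length, transcription factors held 2.36%. Depth limits statements on genes near the floor of 0.180 to 0.236 CPM. No paired analysis was possible because a single group is described and no test between groups was made.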

Other observations

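Genes of the interferon response differed between the control libraries. A list of 58 such genes was written after their values had been seen, so it is a description without a test. Of 57 matched, 27 had at least 10 CPM, and 25 of these were highest in library 3, under count, TMM and DESeq2 scaling alike, against 27.4% of all protein-coding genes at that level. The other 2 were Stat2 (17.997, 28.4 and 19.8 CPM) and Adar (33.6, 47.1 and 42.3 CPM), highest in library 2. Variable members numbered 20, all with library 3 highest, against 0.560% of all. Some of the 27, such as Isg15 and Eif2ak2 (8.33, 4.94 and 18.6 CPM), reached a mean of 10 CPM only through library 3. This favours library 3 in these counts, and no count was made without it. Usp18, which removes the ubiquitin-like protein ISG15 from its targets, had 38.8, 30.9 and 134 CPM in libraries 1, 2 and 3. Oasl2 had 16.98, 19.4 and 63.4 CPM, and Isg15 itself 8.57, 10.7 and 33.4 CPM. Irf9, part of the complex that carries the signal to the nucleus, had 34.3, 30.7 and 91.0 CPM. The same list holds genes of antigen presentation, which are part of the counts above: B2m had 35.4, 51.9 and 149 CPM, and H2-D1 36.2, 43.0 and 109 CPM. The microglia list was also highest in library 3, at 45.2, 95.6 and 126 CPM, and its part in these values was not tested.

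Sex-linked transcripts differed between the pools. Xist, the RNA of the inactive X chromosome, had 345.2, 0.645 and 252 CPM. How reads shared with its antisense partner Tsix were assigned is not known. The Y-linked gene Eif2s3y had 77.6, 149 and 73.1 CPM and Kdm5d 17.1, 33.2 and 15.04 CPM. Library 2 thus held the lowest Xist and the highest Y-linked levels, and its difference from the others cannot be told apart from the sex of its 2 embryos.

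The linker histone gene H1f0 had 1427, 493.5 and 1203 CPM, 2.89-fold lower in library 2 than in library 1 at a high level. Tuba1c had 37.0, 143 and 200 CPM, with 39.7% unique windows, so it is uncertain.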
